A study of Mus musculus with 6 samples.

Results

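Expression of 9 genes that hold or mark the mesenchymal state was followed in mouse embryonic fibroblasts under reprogramming: Snai1, Snai2, Twist1, Twist2, Zeb1, Zeb2, Prrx1, Cdh2 and Cdh11. They were chosen by name and role, with earlier results of these data known. Each was read by the probe set that the platform annotation gives to that symbol alone. All 9 were found among the 19938 genes named in this way, with 1 such probe set each. Cdh11, alone of the 9, also had 3 probe sets listed under several symbols, which were not used. The cells came from 3 genotypes of Foxd1, a forkhead transcription factor: Foxd1+/+, with both copies, Foxd1+/-, with 1 copy lost, and Foxd1-/-, with both lost. All received Oct4, Sox2 and Klf4 by retrovirus on day 0, were kept in serum and were sampled on day 8, so no array is of an uninfected culture. Each genotype had 2 arrays, labelled biological replicates 1 and 2. The labels name neither the embryos behind a replicate nor the cells that took up the viruses, so p-values speak of the spread among arrays, part of which may be technical. As labelled, the replicates of Foxd1+/+ and of Foxd1+/- differed in sex-linked signal (below), so their spread was not only technical. In RNA from whole cultures, fewer cells of a kind and less RNA per cell cannot be told apart.

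Snail, Twist and Zeb proteins are DNA-binding factors that drive the epithelial to mesenchymal transition, in which cells give up tight contacts and become motile. Snail and Zeb proteins are zinc finger repressors that bind E-box sequences in epithelial genes such as Cdh1, which encodes E-cadherin. Twist proteins act as dimers with E proteins, and Prrx1 is a homeobox factor of limb and head mesenchyme. Fibroblasts hold many of these factors, and in reprogramming the reverse change, from mesenchymal to epithelial, is an early step. Cdh2 and Cdh11 encode N-cadherin and cadherin 11, adhesion molecules of mesenchymal cells.

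Median intensity per array lay between 76.5 and 79.6 over 28856 probe sets, and the lowest value was 19.5. Foxd1 read 1907 and 1169 on the arrays labelled Foxd1+/+, 1014 and 2074 on those labelled Foxd1+/-, and 189 and 213 on those labelled Foxd1-/- (replicate 1, then replicate 2, here and below). It was low in both Foxd1-/- arrays, but in replicate 2 the array labelled Foxd1+/- read above the one labelled Foxd1+/+, which goes against these 2 labels. Whether the deleted part covers the probe set is not stated in the labels. The Y-linked gene Uty read 274 on Foxd1+/+ replicate 2 and 244 on Foxd1+/- replicate 1, and between 23.6 and 25.9 on the other 4 arrays. Xist, the RNA of the inactive X chromosome, read 35.2 and 33.7 on those same 2 arrays and 514 or more elsewhere. So the arrays with Y-linked signal were the 2 with the lower Foxd1 among the 4 labelled Foxd1+/+ or Foxd1+/-, and no Foxd1-/- array had such signal. Genotype directions below are those of the arrays as labelled. The mean of Foxd1-/- minus that of the other 4 arrays does not depend on which of the other labels an array carries, but its SE and p do, since each genotype has its own mean in the fit.

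The sequences behind these genes were read from RefSeq tables for GRCm38.p6, in which 5 of the 9 genes matched a listed start. The 250 bases before the start are shown for Snai1, Twist1, Zeb2 and Prrx1, 1 gene from each group of factors, and for Epcam, an epithelial adhesion gene and known target of such repressors. Capitals mark CACCTG or its reverse complement CAGGTG, the E-box letters that Snail and Zeb factors recognise, and TGTTTA or TAAACA, letters of a forkhead site.
Snai1: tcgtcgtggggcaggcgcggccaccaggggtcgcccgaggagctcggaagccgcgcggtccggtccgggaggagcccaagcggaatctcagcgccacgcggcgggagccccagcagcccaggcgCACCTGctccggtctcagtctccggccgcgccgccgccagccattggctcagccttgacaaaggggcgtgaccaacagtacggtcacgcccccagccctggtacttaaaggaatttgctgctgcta
Twist1: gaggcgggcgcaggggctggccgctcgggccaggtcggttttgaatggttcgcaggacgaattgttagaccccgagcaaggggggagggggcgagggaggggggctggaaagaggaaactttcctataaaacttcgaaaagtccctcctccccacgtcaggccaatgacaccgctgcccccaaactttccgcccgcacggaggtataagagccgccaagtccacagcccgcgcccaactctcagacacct
Zeb2: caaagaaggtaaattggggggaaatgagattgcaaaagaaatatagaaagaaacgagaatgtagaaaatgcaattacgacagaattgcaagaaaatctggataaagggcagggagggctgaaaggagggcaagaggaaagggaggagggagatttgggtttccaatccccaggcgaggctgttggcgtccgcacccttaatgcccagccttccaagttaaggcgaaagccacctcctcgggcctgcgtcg
Prrx1: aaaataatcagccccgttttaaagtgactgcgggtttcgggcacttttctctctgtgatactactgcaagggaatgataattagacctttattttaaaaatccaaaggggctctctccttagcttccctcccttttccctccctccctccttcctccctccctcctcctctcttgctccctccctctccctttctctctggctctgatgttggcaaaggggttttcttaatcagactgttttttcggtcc
Epcam: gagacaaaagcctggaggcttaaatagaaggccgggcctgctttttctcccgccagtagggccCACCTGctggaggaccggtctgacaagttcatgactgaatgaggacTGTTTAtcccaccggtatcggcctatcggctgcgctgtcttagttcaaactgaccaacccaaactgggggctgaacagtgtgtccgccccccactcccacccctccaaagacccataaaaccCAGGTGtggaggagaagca
The windows are chr2:167537945-167538194 on the plus strand for Snai1, chr12:33957421-33957670 on the plus strand for Twist1, chr2:45117443-45117692 on the minus strand for the first of 4 listed Zeb2 starts, chr1:163313651-163313900 on the minus strand for Prrx1 and chr17:87635729-87635978 on the plus strand for Epcam. Both strands were searched, and the 2 motifs share no letters where they were found. Snai1 held 1 E-box match, 126 bases before its start. Epcam held 2, at 187 and 19 bases before its start, and a forkhead match at 141 bases. The windows of Twist1, Twist2, Prrx1 and each of the 4 Zeb2 starts held neither motif. Of 32851 listed starts, 17.2% held the E-box letters and 12.0% the forkhead letters in a window of this length, so a match or its lack is common and describes these letters only. GC content was 70.0% for Snai1, 62.4% for Twist1, 49.6% for Zeb2, 47.6% for Prrx1 and 56.4% for Epcam, against a median of 52.4% over all starts.

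Zeb1 and Zeb2 are known targets of the miR-200 family of microRNAs, which share 2 seeds (bases 2 to 8, in capitals). 1 mature sequence of each seed group is shown because the seed is the part that pairs with the Zeb transcripts.
mmu-miR-200a-3p: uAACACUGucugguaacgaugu
mmu-miR-200b-3p: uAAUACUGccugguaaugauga
The first seed is shared with miR-141 and the second with miR-200c and miR-429. The table holds single-symbol probe sets for 4 of these microRNA genes, picked after their values were seen. Mir200a read 42.2 to 48.7, Mir200b 25.5 to 27.1, Mir200c 31.8 to 34.7 and Mir141 23.9 to 27.2 over the 6 arrays, all below the array medians. Whether such probe sets read the mature microRNA is not stated in the labels.

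Of the Snail pair, Snai1, a repressor that acts early in the transition, read 142 and 157 on the arrays labelled Foxd1+/+, 157 and 137 on Foxd1+/-, and 135 and 139.6 on Foxd1-/-. Its means were 149 ± 10.7, 147 ± 13.7 and 137 ± 3.24 (SD, n = 2 arrays). Both Foxd1-/- arrays lay below both Foxd1+/+ arrays, and the 2 highest readings were those of the arrays with Y-linked signal. The log2 difference, Foxd1-/- minus Foxd1+/+, was -0.12 ± 0.09 (SE), with -0.07 in replicate 1 and -0.17 in replicate 2. Snai2, the relative that marks neural crest and mesenchyme, read 229 and 289 on Foxd1+/+, 292 and 222 on Foxd1+/-, and 276 and 274 on Foxd1-/-, with means of 259 ± 42.2, 257 ± 49.2 and 275 ± 1.14 (SD, n = 2). Its Foxd1-/- arrays lay inside the range of both other genotypes. The 2 highest readings again came from the arrays with Y-linked signal, and the part of that signal in either gene was not tested. The Snai2 difference between Foxd1-/- and Foxd1+/+ was 0.10 ± 0.17 (SE) on the log2 scale.

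Twist1, a bHLH factor of limb bud and head mesenchyme, read 926 and 1020.3 on Foxd1+/+, 929 and 1244 on Foxd1+/-, and 1113 and 1636 on Foxd1-/-. Both Foxd1-/- arrays stood above both Foxd1+/+ arrays, and replicate 2 stood above replicate 1 in each genotype. The means were 973 ± 66.5, 1087 ± 223 and 1374 ± 369.9 (SD, n = 2), and neighbouring means differed by less than the larger of their SDs. The log2 difference of Foxd1-/- from Foxd1+/+ came to 0.47 ± 0.24 (SE; 95% interval -0.14 to 1.09), or 1.39-fold, the largest among the 9 genes, with 0.26 in replicate 1 and 0.68 in replicate 2. It kept its sign with each array left out in turn, from 0.19 without Foxd1-/- replicate 2 to 0.75 without Foxd1-/- replicate 1. limma did not call it without the replicate number in the model (adjusted p = 0.9999) or with it (adjusted p = 0.552), although the SE fell to 0.11 in the latter. Twist2, the close relative that acts in skin and bone precursors, read 226 and 270.2 on Foxd1+/+, 259.7 and 251 on Foxd1+/-, and 281 and 276 on Foxd1-/-. Its means were 248 ± 31.5, 255 ± 6.05 and 278 ± 3.85 (SD, n = 2). Twist2 was the one gene of the 9 whose Foxd1-/- arrays both stood above all 4 other arrays, by 0.15 ± 0.08 (log2 difference from the mean of the other genotypes ± SE). The arrays of 10.8% of all genes separated that way or the opposite way, 5.59% with Foxd1-/- higher, and limma gave Twist2 no call.

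Zeb1 read 379 and 473 on Foxd1+/+, 412 and 431 on Foxd1+/-, and 436 and 507 on Foxd1-/-, with means of 426 ± 66.6, 421 ± 13.6 and 471 ± 50.2 (SD, n = 2). Its Foxd1-/- arrays stood above those labelled Foxd1+/- and overlapped those labelled Foxd1+/+. The log2 difference from Foxd1+/+ was 0.15 ± 0.14 (SE). Zeb2 read 163 and 232 on Foxd1+/+, 172 and 242 on Foxd1+/-, and 188 and 253 on Foxd1-/-, with means of 197 ± 48.4, 207 ± 49.1 and 221 ± 46.1 (SD, n = 2). Every replicate 2 array of Zeb2 stood above every replicate 1 array, and within each replicate number the order from low to high was Foxd1+/+, Foxd1+/-, Foxd1-/-. Its steps were small: Foxd1-/- minus Foxd1+/+ gave 0.17 ± 0.27 (SE) on the log2 scale, with 0.20 in replicate 1 and 0.13 in replicate 2. With the replicate number in the model the SE of Zeb2 fell to 0.06, without a call (limma adjusted p = 0.632).

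Prrx1 read 992 and 1301 on Foxd1+/+, 1138 and 1237 on Foxd1+/-, and 1144 and 1465 on Foxd1-/-. Replicate 2 stood above replicate 1 throughout, and the genotypes overlapped. Means were 1147 ± 218, 1188 ± 70.6 and 1305 ± 227 (SD, n = 2), and the log2 difference, Foxd1-/- minus Foxd1+/+, was 0.19 ± 0.18 (SE).

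Cdh2 read 475 and 699.9 on Foxd1+/+, 545 and 642 on Foxd1+/-, and 496 and 617 on Foxd1-/-. The genotypes overlapped fully, and the means of 588 ± 159, 594 ± 69.3 and 557 ± 85.7 (SD, n = 2) lay within 1 SD of each other. The log2 difference of N-cadherin between Foxd1-/- and Foxd1+/+ was -0.06 ± 0.23 (SE), with a 95% interval from -0.65 to 0.53. Cdh11 read 1349.9 and 2168 on Foxd1+/+, 1479 and 1970.3 on Foxd1+/-, and 1732 and 2411 on Foxd1-/-, with means of 1759 ± 578, 1725 ± 347 and 2072 ± 480.1 (SD, n = 2). Within each replicate number Cdh11 was highest in Foxd1-/-, and each replicate 2 array stood above each replicate 1 array. On the log2 scale Foxd1-/- exceeded Foxd1+/+ by 0.26 ± 0.31 (SE), with 0.36 in replicate 1 and 0.15 in replicate 2. The SE of Cdh11 fell to 0.08 with the replicate number in the model, again without a call (limma adjusted p = 0.631).

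**Figure D1:**
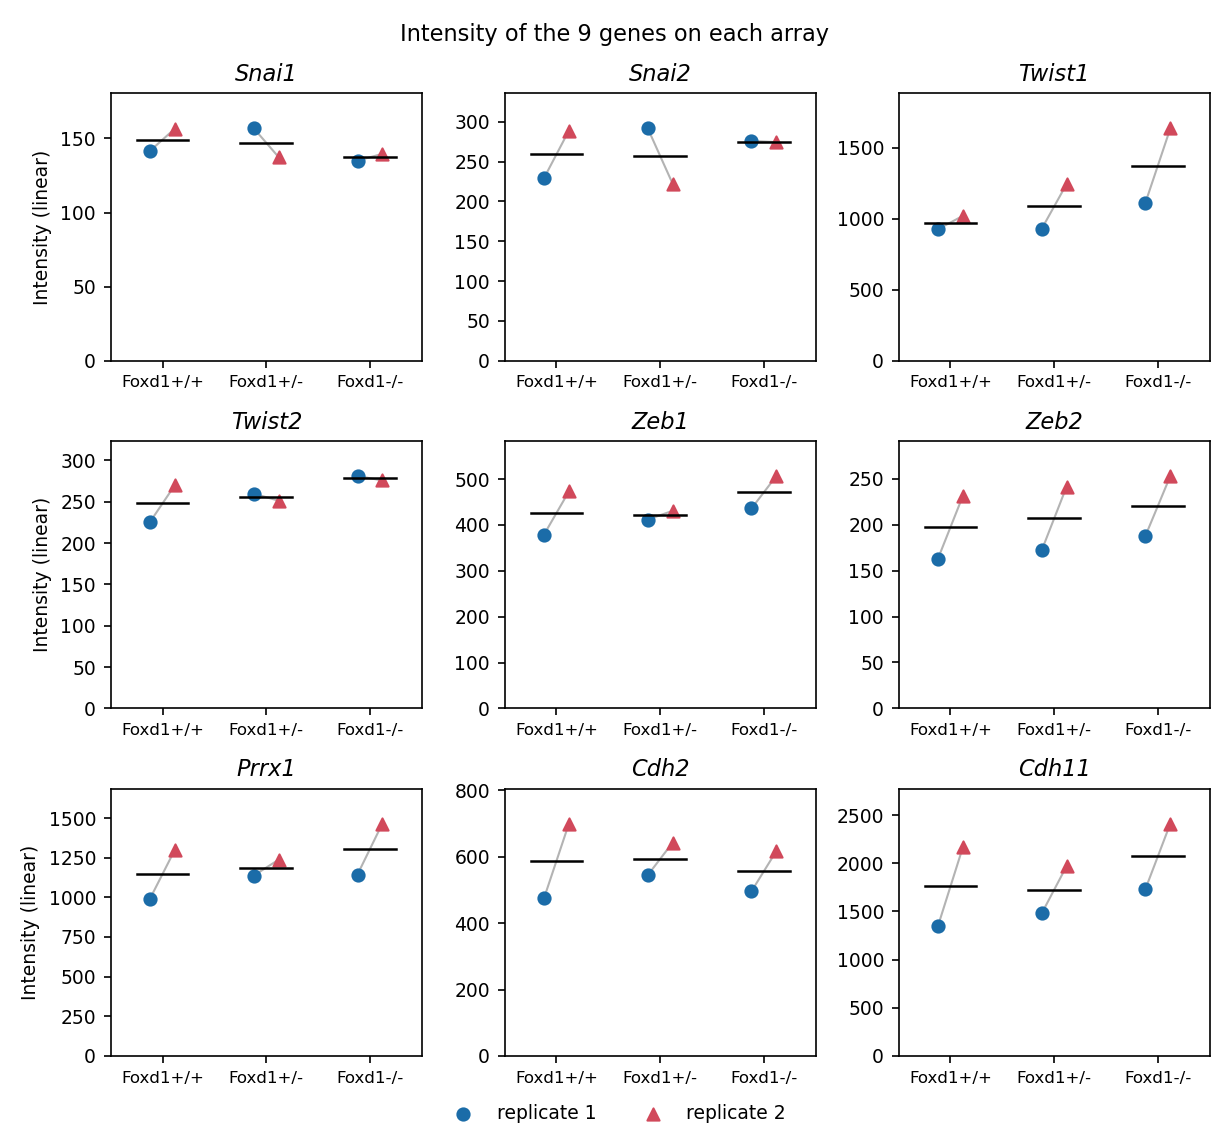
Intensity (linear scale, starting at 0) of each of the 9 genes on the 6 arrays, by genotype, with replicate 1 as circles and replicate 2 as triangles joined by a line, and the genotype mean as a bar. Zeb2, Prrx1, Cdh2 and Cdh11 have all their triangles above all their circles, while Snai1 and Snai2 cross between Foxd1+/+ and Foxd1+/-.

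The 3 genotype comparisons ask what the loss of 1 or both Foxd1 copies does to these factors. Between Foxd1-/- and Foxd1+/+, 7 of the 9 genes had a positive log2 difference and Snai1 and Cdh2 a negative one, with a median of 0.17 against 0.0032 over all genes. limma called 0 of the 9 genes at an adjusted p of 0.05, and 0 of 19938 genes in all (0%), with 421 genes at an unadjusted p under 0.05 and none of the 9 among them. With a block for the replicate number the count of calls was again 0 in limma, and 1503 reached an unadjusted p under 0.05. Foxd1 itself, at a mean log2 of 10.55 on Foxd1+/+ and 7.66 on Foxd1-/- arrays, was called in neither fit. So a count of 0 calls with 2 arrays per genotype does not show that a gene is unchanged. The arrays of 3 of the 9 genes did not overlap, Twist1 and Twist2 higher and Snai1 lower in Foxd1-/-, where 25.7% of all genes did not overlap. Within both replicate numbers 6 of the 9 genes were higher in Foxd1-/- (Twist1, Twist2, Zeb1, Zeb2, Prrx1 and Cdh11), against 29.5% of all genes, and Snai1 was lower in both, against 26.1%.

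Single arrays turned the direction of several of these differences. Leaving out an array makes replicate numbers unequal between genotypes, so the values that follow mix the 2. Without Foxd1+/+ replicate 1 the median of the 9 genes in Foxd1-/- minus Foxd1+/+ was -0.0704, and the differences became -0.07 for Snai2, -0.0098 for Zeb1, -0.0857 for Zeb2, -0.0074 for Prrx1 and -0.0849 for Cdh11. Zeb2 also turned without Foxd1-/- replicate 2 (-0.0484). Cdh2 turned to 0.22 without Foxd1+/+ replicate 2 and to 0.0972 without Foxd1-/- replicate 1. Snai1, Twist1 and Twist2 kept their sign in this comparison with any 1 array left out.

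The second comparison, of arrays labelled Foxd1-/- with arrays labelled Foxd1+/-, uses the Foxd1-/- arrays of the first again. Its log2 differences were 0.33 ± 0.24 for Twist1, 0.26 ± 0.31 for Cdh11, 0.16 ± 0.14 for Zeb1, 0.13 ± 0.18 for Prrx1 and 0.12 ± 0.10 for Twist2 (SE, n = 2 per genotype). Those of Snai2, Zeb2, Snai1 and Cdh2 were 0.11 ± 0.17, 0.10 ± 0.27, -0.10 ± 0.09 and -0.10 ± 0.23. The median was 0.12, against -0.0027 over all genes. Zeb1 and Twist2 did not overlap, 2 of 9 genes against 25.6% of all genes. Within both replicate numbers 6 of the 9 were higher in Foxd1-/-, against 26.6%, and Cdh2 was lower, against 27.2%. limma called 0 of the 9 and 0 of 19938 genes (0%), with 460 at an unadjusted p under 0.05. Zeb2 turned to -0.15 without Foxd1+/- replicate 1 and to -0.12 without Foxd1-/- replicate 2, Prrx1 to -0.0526 without the latter, Snai2 to -0.0838 without Foxd1+/- replicate 2, and Cdh2 to 0.0228 and 0.0611 without Foxd1+/- replicate 2 and Foxd1-/- replicate 1.

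Between the arrays labelled Foxd1+/- and Foxd1+/+ the 9 log2 differences ran from -0.02 for Snai1 to 0.15 ± 0.24 (SE) for Twist1, with a median of 0.04 against 0.0024 over all genes. None of the 9 genes separated the arrays, against 20.3% of all genes, and 7 of the 9 had opposite signs in the 2 replicate numbers. Mixed signs were common, since only 22.0% of all genes were higher and 18.7% lower within both replicate numbers. The median of the 9 was 0.15 within replicate 1 and -0.12 within replicate 2. Snai2 stood at 0.35 and -0.38, so that small means here join differences of opposite sign. The same medians for Foxd1-/- minus Foxd1+/+ were 0.20 and 0.10. Twist1 and Zeb2 were higher in both, against 22.0% of all genes. limma called 0 of 19938 genes (0%), and 193 had an unadjusted p under 0.05. Without Foxd1+/+ replicate 1 the median of the 9 was -0.17, and each of the 9 differences turned sign without at least 1 of the 4 arrays compared.

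Against the mean of both other genotypes, Foxd1-/- arrays differed by 0.40 ± 0.20 for Twist1, 0.26 ± 0.26 for Cdh11 and 0.15 ± 0.12 for Zeb1 (log2 difference ± SE), and the median of the 9 was 0.15. Within both replicate numbers 7 of the 9 genes were higher in Foxd1-/-, against 29.3% of all genes, and Snai1 and Cdh2 were lower, against 29.1%. limma called 0 of 19938 genes (0%), with 547 at an unadjusted p under 0.05 and 1836 with the replicate block. Without Foxd1-/- replicate 2 Zeb2 turned to -0.0831 and Prrx1 to -0.0215, and Cdh2 turned to 0.0609 without Foxd1+/+ replicate 2 and to 0.0792 without Foxd1-/- replicate 1.

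**Figure D2:**
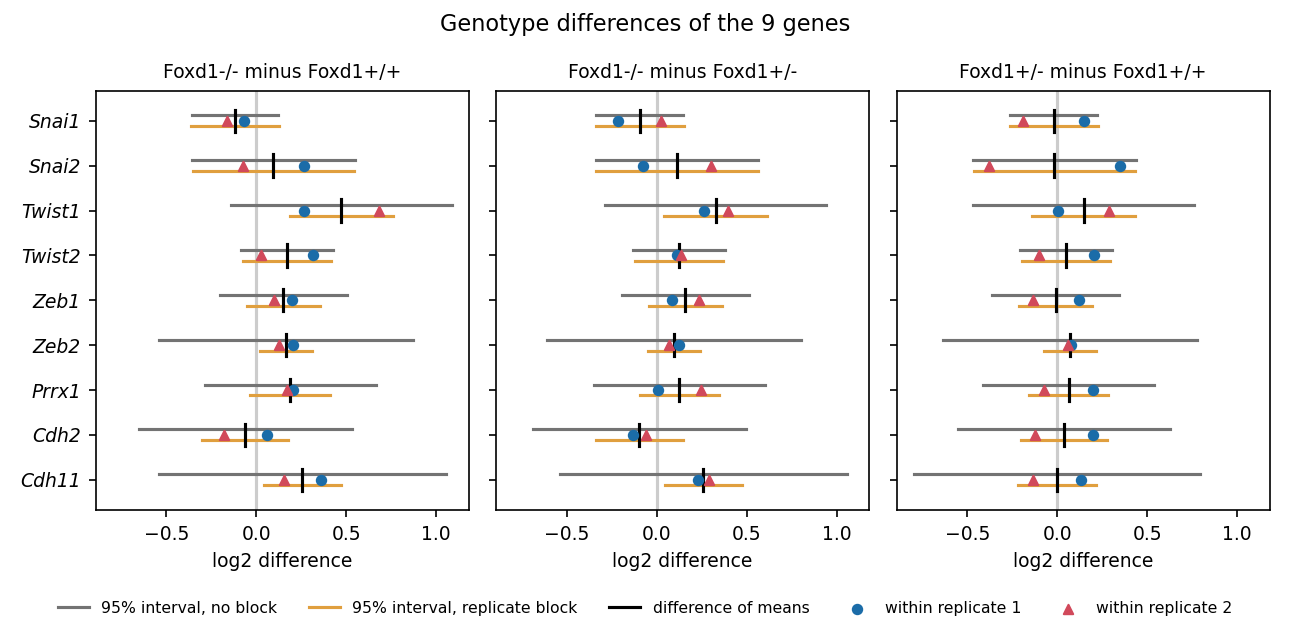
Log2 differences of the 9 genes in 3 genotype comparisons: vertical ticks are differences of means, horizontal lines 95% intervals from limma without (grey) and with (orange) the replicate number as a block, and symbols the difference within replicate 1 (circles) and replicate 2 (triangles). All grey intervals cross 0; with the block, those of Twist1, Zeb2 and Cdh11 lie above 0 in the first panel and those of Twist1 and Cdh11 in the second, before any adjustment over genes.

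Zeb1, Zeb2, Prrx1, Cdh2 and Cdh11 differed more between replicate numbers, whose meaning the labels do not give, than between Foxd1-/- and Foxd1+/+. In a model with genotype and replicate number, Zeb2 was higher in replicate 2 by 0.47 ± 0.05 on the log2 scale (SE; limma adjusted p = 0.0107), 1.39-fold, with 0.50, 0.49 and 0.43 in Foxd1+/+, Foxd1+/- and Foxd1-/-. Cdh11 was higher by 0.52 ± 0.07 (limma adjusted p = 0.0200), 1.44-fold, with 0.68, 0.41 and 0.48. These 2 of the 9 genes were called, where 8.85% of all genes were called, 4.85% as higher and 4.0% as lower. Cdh2 (0.37 ± 0.08, limma adjusted p = 0.0521), Prrx1 (0.29 ± 0.07, adjusted p = 0.0744), Twist1 (0.37 ± 0.09, adjusted p = 0.0759) and Zeb1 (0.20 ± 0.06, adjusted p = 0.135) did not pass. Together with Zeb2 and Cdh11, these 4 made up the 6 genes that read higher in replicate 2 of each genotype, against 22.6% of all genes. All replicate 2 arrays stood above all replicate 1 arrays for 4 of the 9 genes, against 15.2% of all genes, or 31.0% counting either direction.

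Snai1, Snai2 and Twist2 had no common direction between replicate numbers, with mean log2 differences of 0.001 ± 0.08, -0.02 ± 0.14 and 0.06 ± 0.08 (SE). Within Foxd1+/+ each was higher in replicate 2, by 0.14, 0.33 and 0.26, and within Foxd1+/- each was lower, by -0.19, -0.39 and -0.05. With genotype in the model, a genotype left with 1 array adds nothing to the replicate difference, so leaving out 1 array removes its pair. The calls between replicate numbers were lost with either of the Foxd1-/- arrays left out. Without either of them limma called 0 of the 9 genes and 0 of all 19938 genes, with 3192 at an unadjusted p under 0.05, and the adjusted p was 0.0946 for Zeb2 and 0.130 for Cdh11, whose differences stayed at 0.49 and 0.55. Leaving out 1 array of Foxd1+/+ or of Foxd1+/- left 3 of the 9 genes called, where 6.04% and 6.97% of all genes were called. Restricting the fit to genes with a mean log2 intensity of at least 7, or a prior fitted with trend and robust options, gave 5 of the 9, with Twist1, Prrx1 and Cdh2 added, while the share called among all genes tested went up to 20.4% of 9106 and to 10.8% of 19938.

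**Figure D3:**
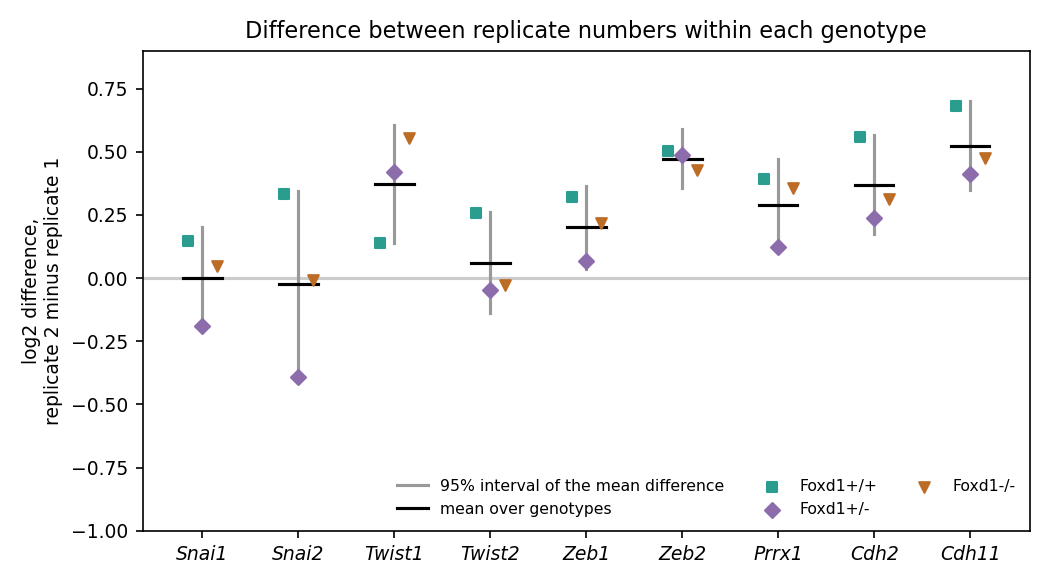
Log2 difference of replicate 2 minus replicate 1 for the 9 genes within each genotype (symbols), with the mean over genotypes (black bar) and its 95% interval (grey line). Zeb2 and Cdh11 lie between 0.41 and 0.68 in all 3 genotypes, while Snai1, Snai2 and Twist2 lie on both sides of 0.

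The genes around these factors were read from lists by role, described by counts and medians. Twist proteins work with E proteins and are held back by Id proteins, which capture E proteins without binding DNA. Of 7 measured partners and inhibitors, 6 had a positive log2 difference between Foxd1-/- and Foxd1+/+ (median 0.22), and limma called none. The E protein Tcf4 read 544 and 719 on Foxd1+/+, 542 and 772 on Foxd1+/-, and 663 and 946 on Foxd1-/-, a log2 difference of 0.34 ± 0.27 (SE), and the E protein Tcf3 differed by 0.07 ± 0.11. The inhibitor Id3 read 249.6 and 194, 206 and 245, and 269 and 355 in the same order, so that both Foxd1-/- arrays stood above both Foxd1+/+ arrays (0.49 ± 0.20), and Id1 differed by 0.30 ± 0.22. Id3 was the 1 gene of the 7 whose arrays did not overlap, where 25.7% of all genes did not. Between replicate numbers 4 of the 7 were called, against 8.85% of all genes, all higher in replicate 2: Tcf4 by 0.47 ± 0.05, Tcf12 by 0.31 ± 0.05, Id2 by 0.80 ± 0.15 and Id4 by 0.73 ± 0.08 (limma adjusted p of 0.0123, 0.0288, 0.0460 and 0.0146). Here and in the next paragraphs, genes named for a call between replicate numbers were chosen after their values were seen, and each of these calls was lost without either Foxd1-/- array.

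Among 22 measured relatives and other mesenchymal transition factors, the median log2 difference of Foxd1-/- from Foxd1+/+ came to 0.01 with 12 higher and 10 lower, and none was called. Examples were the homeobox factor Meox2 (0.29 ± 0.07), the zinc finger factors Osr1 (0.33 ± 0.15) and Osr2 (0.78 ± 0.43), and the forkhead factor Foxc2 (-0.18 ± 0.07), as log2 ± SE. Each had no overlap between the arrays of the 2 genotypes. This held for 6 of the 22 genes, near the 25.7% of all genes. Of the 22, 13 had a mean log2 intensity under 7, Foxc2 among them. Between replicate numbers 5 of the 22 were called as higher and 3 as lower in replicate 2, against 4.85% and 4.0% of all genes. Prrx2, the paralogue of Prrx1, was higher by 0.82 ± 0.09 (limma adjusted p = 0.0152), while Msc, a bHLH repressor of muscle genes, was lower by -1.75 ± 0.05 (limma adjusted p = 0.00447). Msc read 507, 457 and 418 on the replicate 1 arrays and 141, 144 and 124 on the replicate 2 arrays. The mesenchymal factors thus did not share 1 direction between replicate numbers.

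Snail and Zeb repressors recruit corepressors, and Snail protein is short-lived and controlled by kinases, ligases and deubiquitinases. The median log2 differences between Foxd1-/- and Foxd1+/+ were -0.04 over 16 corepressor genes and -0.0032 over 12 stability genes, and limma called none of them. The LIM proteins Ajuba and Limd1 differed by -0.18 ± 0.07 and 0.19 ± 0.11, the Wnt feedback gene Axin2 by 0.34 ± 0.09 and the deubiquitinase Usp27x by -0.22 ± 0.07 (log2 ± SE). Axin2 and Usp27x had a mean log2 intensity under 7. Between replicate numbers Suz12, a Polycomb subunit, was the one gene of both lists called (-0.39 ± 0.05, limma adjusted p = 0.0189).

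Upstream signals, among them TGF-beta, Wnt, Notch and growth factor pathways, had 19 of 29 genes higher in Foxd1-/- than in Foxd1+/+ with a median of 0.05, and none called. The receptor Pdgfra read 282 and 284 on Foxd1+/+, 237 and 335 on Foxd1+/-, and 452 and 478 on Foxd1-/-. Both Foxd1-/- arrays stood above the other 4, and the log2 difference from Foxd1+/+ was 0.71 ± 0.17 (SE; limma adjusted p = 0.9999). Of the 29 genes, 3 had both Foxd1-/- arrays above the other 4, against 5.59% of all genes. The TGF-beta receptor Tgfbr2 differed by 0.28 ± 0.08 and the ligand Pdgfa by -0.40 ± 0.15. Of the 29, 7 were called as higher and 1 as lower in replicate 2, against 4.85% and 4.0% of all genes. Tgfb2, a TGF-beta ligand, was higher in replicate 2 by 0.86 ± 0.10 (limma adjusted p = 0.0172), Wnt5a by 0.69 ± 0.05 (0.00734) and Pdgfrb by 0.55 ± 0.05 (0.00865), whereas Lef1, a mediator of Wnt signals, was lower by -0.68 ± 0.09 (0.0215).

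The epithelial genes that these repressors are known to hold down were split between Foxd1-/- and Foxd1+/+: over 39 measured targets 19 were higher and 20 lower, with a median log2 difference of -0.0042 and none called. Cdh1 read 681 and 502 on Foxd1+/+, 501 and 637 on Foxd1+/-, and 625 and 609 on Foxd1-/-, a log2 difference of 0.08 ± 0.19 (SE). Its 2 lowest readings were those of the arrays with Y-linked signal. Epcam, whose promoter window held 2 E-box matches, read 483 and 313, 396 and 425, and 359 and 226, which differed by -0.45 ± 0.30. The keratin Krt18 differed by 0.28 ± 0.10, the epithelial regulator Grhl2 by -0.35 ± 0.13 and the desmosome gene Dsp by 0.46 ± 0.24. Krt18, Grhl2 and Esrp2, which is named below, were among 24 of the 39 targets with a mean log2 intensity under 7. Between replicate numbers 9 of the 39 targets were called, all lower in replicate 2, where 4.0% of all genes were called as lower. Grhl3, an epidermal regulator, was lower by -1.54 ± 0.06 (limma adjusted p = 0.00447), the membrane protease St14 by -0.71 ± 0.06 (0.00808), its inhibitor Spint1 by -0.68 ± 0.07 (0.0136) and the splicing regulator Esrp2 by -0.58 ± 0.07 (0.0177). Cdh1 (-0.04 ± 0.15) and Epcam (-0.40 ± 0.17; limma adjusted p = 0.228) were not among them, and neither was any of the 10 genes of the epithelial cell marker list.

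N-cadherin and E-cadherin are known to replace each other in the transition. Relative to each gene's own mean over the 6 arrays, the Cdh2 level minus the Cdh1 level was -0.48 and 0.52 on the log2 scale for Foxd1+/+, 0.16 and 0.05 for Foxd1+/-, and -0.30 and 0.06 for Foxd1-/-. The spread within Foxd1+/+ was thus wider than any distance between genotypes. Over 24 cadherin and catenin genes the median difference between Foxd1-/- and Foxd1+/+ was 0.0065, with Cdh4 at -0.22 ± 0.08, Cdh9 at 0.14 ± 0.06 and Ctnna1, which links cadherins to actin, at -0.10 ± 0.06 (SE), and none was called. Replicate 2 was higher for Cdh10 (1.09 ± 0.09, limma adjusted p = 0.00822), Cdh6 (0.48 ± 0.07, 0.0235), Cdh7 (0.37 ± 0.05, 0.0252) and Cdh5 (0.34 ± 0.05, 0.0232), and lower for Ctnna2 (-0.48 ± 0.04, 0.00948). These 5 of the 24 genes were called, against 8.85% of all genes. Of the 24, 13 had a mean log2 intensity under 7, among them Cdh4 (6.80), Cdh7 (5.76), Cdh5 (5.53) and Cdh9 (4.80).

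Structural genes of mesenchyme, such as collagens, had 17 of 23 members higher in Foxd1-/- than in Foxd1+/+ (median 0.12, none called), with Col1a2 at 0.23 ± 0.10 and Lum, a matrix proteoglycan, at 0.61 ± 0.41 (log2 ± SE). Vim, the intermediate filament gene of mesenchymal cells, differed by -0.08 ± 0.08 between these genotypes and by 0.05 ± 0.06 between replicate numbers. Of the 23, 9 were called as higher and 1 as lower in replicate 2, again against 4.85% and 4.0%. Postn, a matrix protein, was higher by 0.73 ± 0.09 (limma adjusted p = 0.0162) and Mmp2, a matrix protease, by 0.63 ± 0.05 (0.00808), while the protease Mmp3 was lower by -1.38 ± 0.12 (0.00862).

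Markers of the labelled cell type were present: none of the 12 fibroblast markers had a mean log2 intensity under 7, and their summed intensity was 34471 and 43735 on Foxd1+/+, 35618 and 42370 on Foxd1+/-, and 40183 and 47966 on Foxd1-/-. All of these 12 but Fbln2 are also in the structural or upstream signal lists above, so their counts overlap with those given there. Of the 12, 10 were higher in Foxd1-/- than in Foxd1+/+ (median 0.27, none called). Between replicate numbers 6 of them were called as higher in replicate 2, against 4.85% of all genes. Pluripotency markers lay the other way, with 11 of 12 lower in Foxd1-/- (median -0.16, none called) and 5 of 12 called as lower in replicate 2, against 4.0% of all genes. The largest of these was Tdgf1, a pluripotency coreceptor (-2.27 ± 0.19, limma adjusted p = 0.00847). Their summed intensity was 4561 and 2426, 3408 and 2988, and 3429 and 2163, and 7 of the 12 had a mean log2 under 7. Of 12 macrophage markers 10 were lower in Foxd1-/- than in Foxd1+/+ (median -0.16, none called), with sums of 2860 and 2618 on Foxd1+/+, 3125 and 2342 on Foxd1+/-, and 2163 and 1866 on Foxd1-/-. A mean log2 under 7 was found for 8 of the 12. The sums rest mostly on Laptm5 and Lyz2, which read 1296 and 677 on Foxd1+/+ replicate 1. Between replicate numbers 3 of these 12 were called as lower in replicate 2, against the same 4.0%. Yet 8 of the 12 were higher in replicate 2 and 4 lower, with a median log2 difference of 0.05, so the list had no common direction. Endothelial, skeletal muscle and neural lists had 9 of 10, 9 of 10 and 5 of 7 genes under a mean log2 of 7, and 1, 0 and 1 called between replicate numbers. Between replicate numbers 6 of 12 fibroblast markers were thus called in the direction of Zeb2 and Cdh11 and 5 of 12 pluripotency markers in the opposite one, while others such as Vim and Nanog (-0.06) were not called. The part of these markers in the differences of Zeb2 and Cdh11 was not tested.

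**Figure D4:**
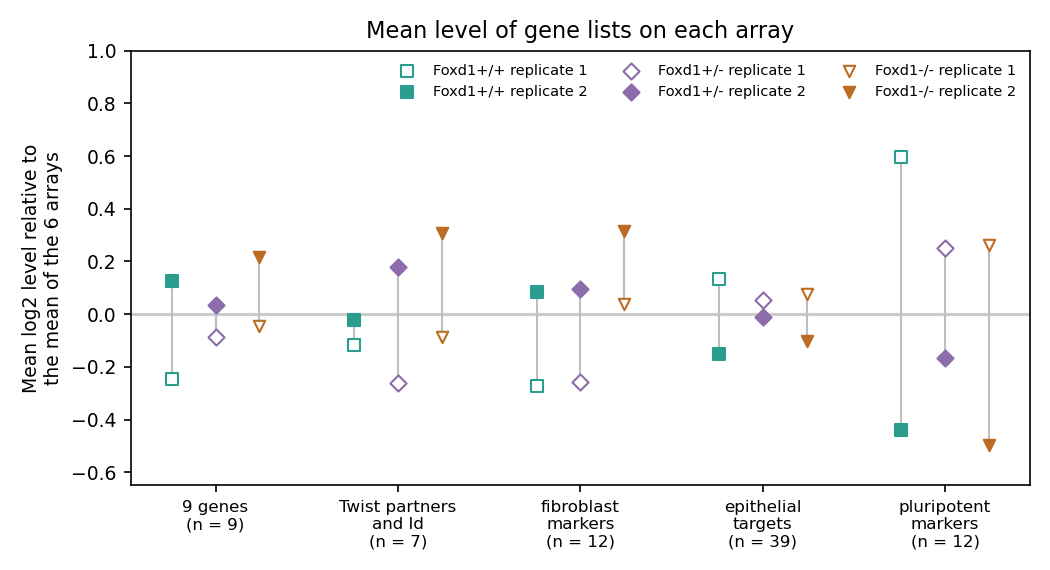
Mean log2 level of 5 gene lists on each array, relative to the mean of the 6 arrays, with replicate 1 as open and replicate 2 as filled symbols joined by a line within each genotype. The 9 genes run from -0.25 on Foxd1+/+ replicate 1 to 0.22 on Foxd1-/- replicate 2, with the filled symbol above the open one in every genotype for them and for fibroblast markers, and below it for pluripotency markers.

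Among the 9 genes, Zeb1 and Prrx1 had the most alike profiles over the 6 arrays, with a root mean square difference of 0.056 between their centred log2 levels, followed by Twist2 and Zeb1 (0.0833) and by Zeb2 and Cdh11 (0.0884). Snai1 and Twist1 were the least alike (0.338). The 3 genes with the widest range over the arrays were Cdh11 (0.84 on the log2 scale), Twist1 (0.82) and Zeb2 (0.63). Out of 8935 candidate genes, the profile of Cdh11 was most like those of Antxr2, a receptor for collagen VI and anthrax toxin (0.0286), Bgn, the matrix proteoglycan biglycan (0.0335), and Enpp5 (0.0392). Bgn read 1762 and 2722 on Foxd1+/+, 1957 and 2568 on Foxd1+/-, and 2194 and 2992 on Foxd1-/-. Nearest to Twist1 were Zfp36l2, an RNA-binding protein (0.0457), Gpr153 (0.0613) and Tcirg1, a proton pump subunit (0.0634). Nearest to Zeb2 were Slit3, a guidance ligand (0.037), Pid1 (0.0411) and Tnfaip6, a hyaluronan-binding protein (0.0429). These are descriptions over 6 arrays that share genotype and replicate number.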

How the data were processed

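Total RNA was hybridised to 6 single-colour Affymetrix arrays, 2 for each of 3 genotypes taken from the titles. The authors deposited 1 table of linear intensity values for 28856 probe sets. For background, normalization and probe summary, no method is given in the sources used here, and no detection call is used. Probe sets with 1 symbol in the platform annotation were kept (21789; 1621 had several and 5446 none), and the one with the highest mean was used for the 999 genes with several. Of the 21789, 21698 matched a RefSeq gene table by Entrez identifier.

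Values were taken as log2(intensity + 1). The lowest intensity was 19.5, so the added 1 compresses differences of dim genes little. How far background left in the intensities compresses them is not known. These log2 values were fitted with limma 3.58.1 (R 4.3.3, lmFit and eBayes) over all 19938 genes. The fit had 1 mean per genotype, no block, and Benjamini-Hochberg adjustment at 0.05. The SE of a genotype difference is from this fit unless the replicate number is named, so it includes the spread between replicate numbers. The fit without a block was tested on simulated data for Foxd1-/- minus Foxd1+/+, with no shared replicate effect in the simulation. The fits with the replicate number were not tested in this way. Figures were drawn with matplotlib 3.10.9. Deviations of same-numbered replicates correlated between genotypes (r of 0.55, 0.73 and 0.73), so the numbers were taken to pair the arrays, from the data alone. The replicate difference was fitted with genotype in the model.

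The 9 genes and the lists were chosen with earlier results of these data known. Genes named are the 9, Foxd1, up to 4 of each list with the smallest p in Foxd1-/- minus Foxd1+/+, Cdh1, Epcam, Vim and Tcf4, and, for the 3 of the 9 with the widest range, the 3 genes with the most alike profile and a mean log2 of at least 7. Others were chosen after their values were seen. Promoter and microRNA sequences are RefSeq's (GRCm38.p6), and sequences of genes on chromosome 18 were not used here.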

Additional observations from a re-analysis of the deposited data

Results flagged for a closer look

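Among the 9 genes, 3 had a replicate difference that ran opposite ways in 2 genotypes, and the difference between genotypes was not tested. The log2 difference of replicate 2 minus replicate 1 was larger in Foxd1+/+ than in Foxd1+/- by 0.72 for Snai2 (0.33 and -0.39), by 0.33 for Snai1 (0.14 and -0.19) and by 0.31 for Twist2 (0.26 and -0.05). Among all genes 54.5% ran opposite ways in at least 1 pair of genotypes. Snai1 and Snai2 read highest on Foxd1+/+ replicate 2 and Foxd1+/- replicate 1, the 2 arrays with Y-linked signal. No genotype had more than 2 arrays, so no array could be tested as lying apart from its group.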

How the results depend on the processing

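With the replicate block, 0 of the 9 genes were called in each genotype comparison, as without it, and the pairing changed no call. Of 639 values of single genes under another setting, 579 kept their direction and side of the threshold, 4 lost a call, 12 gained one and 44 turned sign, of which 3 did so without leaving out an array. Those 3 were Zeb1 in Foxd1+/- minus Foxd1+/+ (0.0032 after quantile normalization, with and without the block) and Snai1 between replicate numbers (-0.0181 after quantile normalization). The block fits with quantile normalization or the intensity filter were added after seeing the data. Between replicate numbers 5 of the 9 genes were called with trend and robust priors (10.8% of all genes), 5 with the intensity filter (20.4% of 9106 genes) and 0 to 3 with 1 array left out (0% to 6.97%). Medians of the 9 genes with 1 array left out ran from -0.0704 to 0.3095 in Foxd1-/- minus Foxd1+/+ and from -0.1679 to 0.215 in Foxd1+/- minus Foxd1+/+. Single genes that turned sign ran as follows. For Foxd1-/- minus Foxd1+/+ they were Snai2 (-0.07 to 0.26), Zeb1 (-0.0098 to 0.31), Zeb2 (-0.0857 to 0.42), Prrx1 (-0.0074 to 0.38), Cdh2 (-0.34 to 0.22) and Cdh11 (-0.0849 to 0.60). For Foxd1-/- minus Foxd1+/- they were Snai2 (-0.0838 to 0.31), Zeb2 (-0.15 to 0.34), Prrx1 (-0.0526 to 0.30) and Cdh2 (-0.25 to 0.0611). For Foxd1+/- minus Foxd1+/+ they were Snai1 (-0.12 to 0.0735), Snai2 (-0.21 to 0.18), Twist1 (-0.065 to 0.36), Twist2 (-0.081 to 0.18), Zeb1 (-0.17 to 0.15), Zeb2 (-0.18 to 0.32), Prrx1 (-0.13 to 0.26), Cdh2 (-0.24 to 0.31) and Cdh11 (-0.34 to 0.34). For Foxd1-/- minus both other genotypes they were Zeb2 (-0.0831 to 0.34), Prrx1 (-0.0215 to 0.34) and Cdh2 (-0.24 to 0.0792). Between replicate numbers they were Snai1 (-0.0709 to 0.0964), Snai2 (-0.20 to 0.16) and Twist2 (-0.0381 to 0.12). The number of arrays limits the precision, and signal over background is not known. The cause was not tested.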
